A study of Mus musculus with 3 samples.

Results

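Toll-like receptors are membrane proteins that recognise microbial molecules, and CD14 is a surface protein that hands lipopolysaccharide and other ligands to them. The genes of 9 mouse receptors and Cd14 were followed by gene symbol through 3 libraries of colonic myeloid cells. All 10 symbols (Tlr1, Tlr2, Tlr3, Tlr4, Tlr5, Tlr6, Tlr7, Tlr9, Tlr13 and Cd14) were among the 24346 listed, and all 10 reached 1 FPKM or more (fragments scaled to transcript length and to the mapped total) in at least 1 library, as did 17329 genes in all. The libraries, 1 for each population, came from Gr-1+ CD11b+ cells (neutrophils and monocytes, per the labels), from CD64+ macrophages and from CD64- dendritic cells (DC). All were isolated from the colon of BALB/c mice described as healthy. The age and number of the mice, and whether cells of several mice were pooled, are not given in the sources used here. With 1 library per population differences cannot be set against a spread between samples, so they are described without tests.

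The receptors fall into groups by what they bind and where. TLR2 pairs with TLR1 or TLR6 at the cell surface to recognise bacterial lipopeptides, TLR4 with its partner MD-2 recognises lipopolysaccharide, and TLR5 recognises flagellin. TLR3, TLR7, TLR9 and TLR13 sit in endosomes and recognise double-stranded RNA, single-stranded RNA, unmethylated CpG DNA and bacterial ribosomal RNA, in that order. In the intestine, where bacteria lie close to the epithelium, myeloid cells of the lamina propria carry these receptors in differing combinations. In bulk samples such as these, fewer cells of a type and less RNA per cell cannot be told apart.

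Marker genes were compared with the labels first. All 10 neutrophil markers were highest in Gr-1+ CD11b+ cells, all 10 macrophage markers in macrophages, and 8 of 10 dendritic cell markers in DC. Of 8 monocyte markers, 1 was highest in Gr-1+ CD11b+ cells, while macrophages held the highest level of 6 and DC of 1, with sums of 1728, 3630 and 1688 FPKM in that order. The DC library also held the highest level of all 8 B cell and all 6 plasma cell markers, and the summed B cell markers were 69.4 FPKM in Gr-1+ CD11b+ cells, against 139 in macrophages and 2948 in DC. Summed plasma cell markers were 618, 1310 and 21200 FPKM in the same order of populations. Epithelial markers summed to 1100 FPKM in Gr-1+ CD11b+ cells, against 333 in macrophages and 561 in DC. No marker was listed at 0 in any library except Camp, a neutrophil granule gene, in macrophages and DC. The libraries differed in depth, where relative to Gr-1+ CD11b+ cells it was about 2.72 times greater for macrophages and 3.6 times greater for DC, and in the level of genes that myeloid cells should not use. The 95th percentile over 1452 olfactory and vomeronasal receptor genes was 9.69 FPKM in Gr-1+ CD11b+ cells, against 3.24 in macrophages and 0.611 in DC. These are called the silent-gene levels here, and values at or below them are not read as expression.

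Of the 10 genes, 6 exceeded the silent-gene level in Gr-1+ CD11b+ cells, against 8 in macrophages and 9 in DC. Because that level differs between libraries, these counts do not rank the populations. Tlr1, Tlr2, Tlr4, Tlr6, Tlr13 and Cd14 exceeded it in every library. The remaining 4 genes were all below it in Gr-1+ CD11b+ cells. The plot of levels by gene shows all values with their counting intervals, which cover counting error only, because reads amplified without molecular identifiers do not count single molecules.

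**Figure D1:**
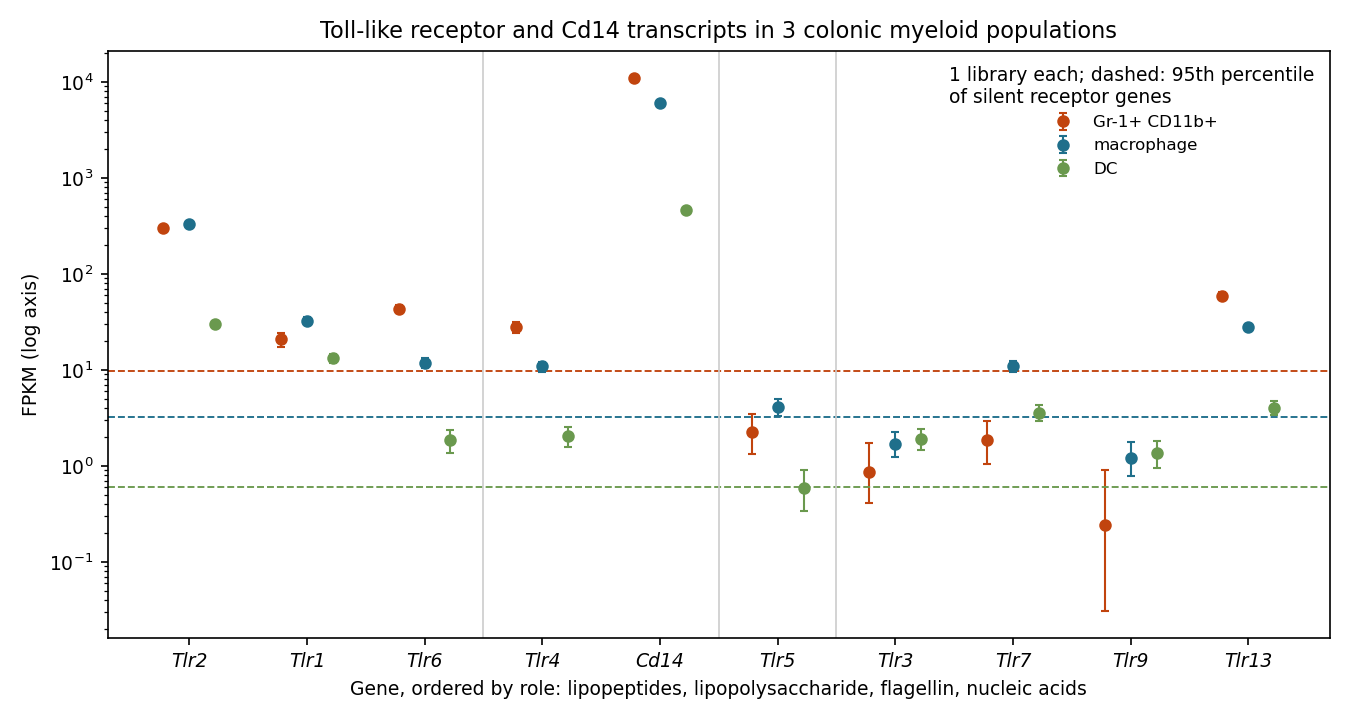
FPKM of the 10 genes (log axis) in Gr-1+ CD11b+ cells, macrophages and DC, 1 library each; bars are approximate exact Poisson 95% counting intervals and dashed lines the silent-gene levels of 9.69, 3.24 and 0.611 FPKM in that order. Cd14 and Tlr2 stand highest in every library, and Tlr3, Tlr5, Tlr7 and Tlr9 lie below the silent-gene level in Gr-1+ CD11b+ cells.

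A gene was called higher or lower in one library by a size rule, a difference of 2 or more in log2(FPKM + 1), which is about 4-fold at high levels and understates differences of low genes, and at least 10 FPKM in the higher library. In Gr-1+ CD11b+ cells against DC, 5 of 10 genes were higher and 0 lower, where the rule called 3.65% of all compared genes higher and 6.28% lower. In macrophages against DC, 4 of 10 were higher and 0 lower, beside 2.31% and 1.53% of all compared genes. In Gr-1+ CD11b+ cells against macrophages, 0 of 10 were higher and 1 lower, beside 1.41% and 3.41%. Genes below 10 FPKM in both libraries of a comparison count in these shares but cannot be called. The median difference over the 10 genes was 2.14, 1.82 and -0.35 in that order of comparisons, and over all compared genes 0.01, 0.05 and 0.10. Any 2 of these comparisons share a library. Shares of all genes called by the rule are given for values as deposited only, also beside counts under another scaling.

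**Figure D2:**
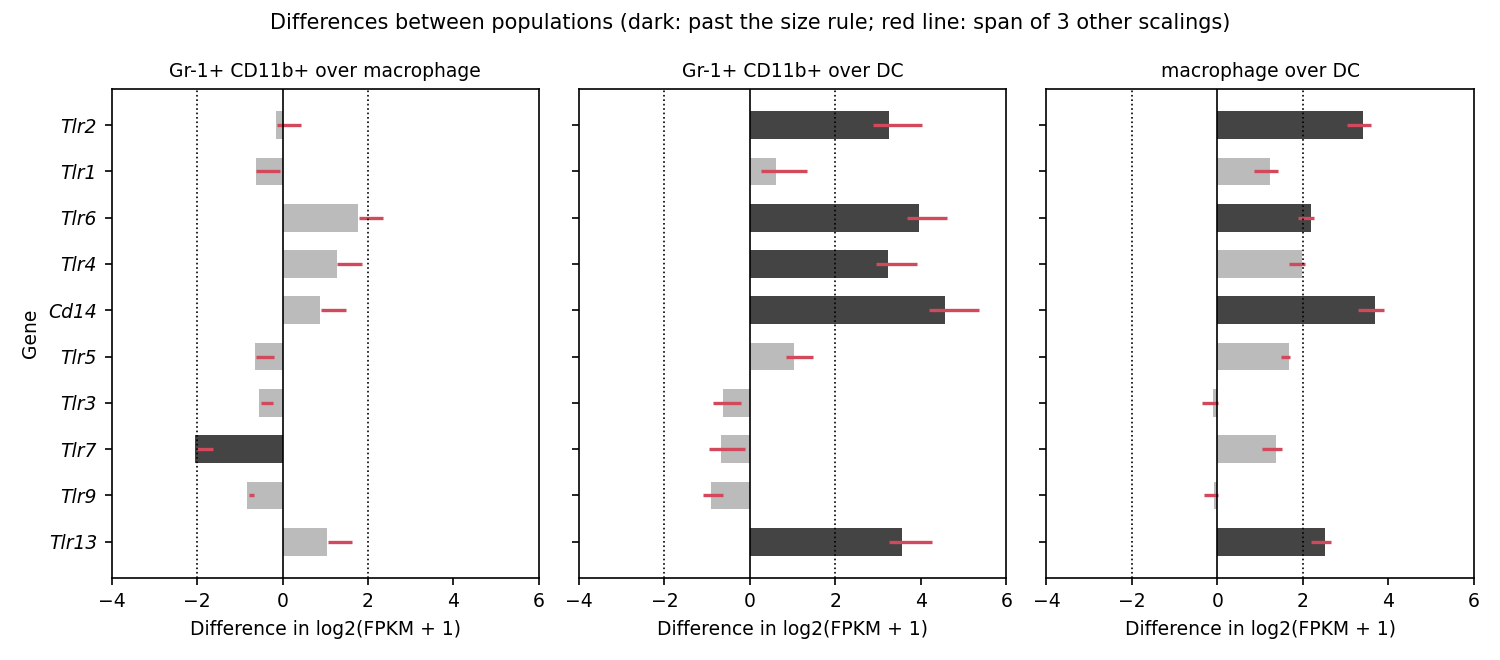
Differences in log2(FPKM + 1) for the 10 genes in the comparisons of Gr-1+ CD11b+ cells over macrophages, Gr-1+ CD11b+ cells over DC, and macrophages over DC; dark bars passed the size rule, dotted lines mark its limits of -2 and 2, and red lines span the values under 3 other scalings. Tlr2, Tlr6, Tlr13 and Cd14 are dark in both comparisons with DC, and Tlr7 alone is dark, towards macrophages, in the comparison of Gr-1+ CD11b+ cells with macrophages.

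In GRCm38 (GENCODE M21), Tlr2 lies at chr3:83836272-83841767 on the minus strand, with its coding sequence in 1 exon. Tlr2, the shared partner of the lipopeptide receptors, reached 297 FPKM in Gr-1+ CD11b+ cells, against 332 in macrophages and 30.3 in DC. It was close to equal in the first pair and far lower in DC, at 9.11% of the macrophage level. It differed by 3.25 in Gr-1+ CD11b+ cells over DC and by 3.41 in macrophages over DC, both past the size rule. Between Gr-1+ CD11b+ cells and macrophages it was -0.16, and 0.42 with median-ratio scaling, so no direction is given. By level it ranked 340th of all genes in Gr-1+ CD11b+ cells, 408th in macrophages and 3006th in DC.

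The partners of TLR2 had different patterns. Tlr1, whose product recognises triacylated lipopeptides with TLR2, reached 20.8 FPKM in Gr-1+ CD11b+ cells, against 32.6 in macrophages and 13.3 in DC, and passed the size rule in no comparison. Its difference of -0.63 in Gr-1+ CD11b+ cells over macrophages was -0.07 with median-ratio scaling. Tlr6, whose product recognises diacylated lipopeptides with TLR2, reached 43.1 FPKM in Gr-1+ CD11b+ cells, against 11.9 in macrophages and 1.85 in DC. It differed by 3.95 in Gr-1+ CD11b+ cells over DC and by 2.18 in macrophages over DC, both past the rule, although the second was 1.89 when library sums were made equal. The difference of 1.77 between Gr-1+ CD11b+ cells and macrophages did not pass, but was 2.34 with median-ratio scaling and then did.

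The ratio of Tlr1 to Tlr6 within a library, which no scaling of the library changes, thus turned over. It was 0.482 in Gr-1+ CD11b+ cells, against 2.74 in macrophages and 7.21 in DC. Tlr6 was the more abundant partner in Gr-1+ CD11b+ cells and Tlr1 in the other populations. The Tlr1 value of DC came from the library with the highest B cell markers. The part of B cells in that value was not tested.

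Tlr1 and Tlr6 lie beside each other on the minus strand of chromosome 5, at chr5:64924679-64933563 and chr5:64952031-64960097 (GRCm38, GENCODE M21), and their whole coding sequence lies in 1 exon each. Over 9 of 24 windows of 100 alignment columns, covering positions 1317 to 2216 of the Tlr1 coding sequence, the genes were 95 to 100% identical. In the other 15 windows identity was 54.2 to 75%. The longest stretch shared without a difference was 229 bases, against 11 to 16 bases in each of the other 35 pairs of the 9 receptor genes. Of all 50-base windows of the longest transcript, 15.3% in Tlr1 and 12.5% in Tlr6 also occur in the other gene. Fragments from the shared stretches cannot be assigned from sequence alone, how the authors' tools divided them is not given in the sources used here, and the levels of both genes carry that uncertainty. The shared 229-base run, at chr5:64925537-64925765 in Tlr1 and chr5:64953828-64954056 in Tlr6 (coding strand, 5′ to 3′, from GENCODE M21), is shown because a fragment within it fits both genes.
Tlr1 and Tlr6 shared run: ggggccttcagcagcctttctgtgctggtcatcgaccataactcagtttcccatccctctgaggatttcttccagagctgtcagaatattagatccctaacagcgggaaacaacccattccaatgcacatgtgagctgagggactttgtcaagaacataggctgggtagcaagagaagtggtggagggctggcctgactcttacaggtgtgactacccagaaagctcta

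The least alike 150 bases aligned without a gap lie upstream of it in the part that encodes the ligand-binding ectodomain, at chr5:64926361-64926510 in Tlr1 and chr5:64954652-64954801 in Tlr6. They are shown because fragments from such stretches tell the genes apart, with 78 identical bases in lower case and the 72 that differ in capitals.
Tlr1: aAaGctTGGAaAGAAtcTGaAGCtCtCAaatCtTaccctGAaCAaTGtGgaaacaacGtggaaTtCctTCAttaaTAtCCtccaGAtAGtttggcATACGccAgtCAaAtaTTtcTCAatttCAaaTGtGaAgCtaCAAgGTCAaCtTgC
Tlr6: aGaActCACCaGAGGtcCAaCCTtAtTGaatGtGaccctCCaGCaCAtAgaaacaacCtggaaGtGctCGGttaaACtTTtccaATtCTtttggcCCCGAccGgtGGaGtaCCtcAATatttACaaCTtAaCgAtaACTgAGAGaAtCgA

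**Figure D3:**
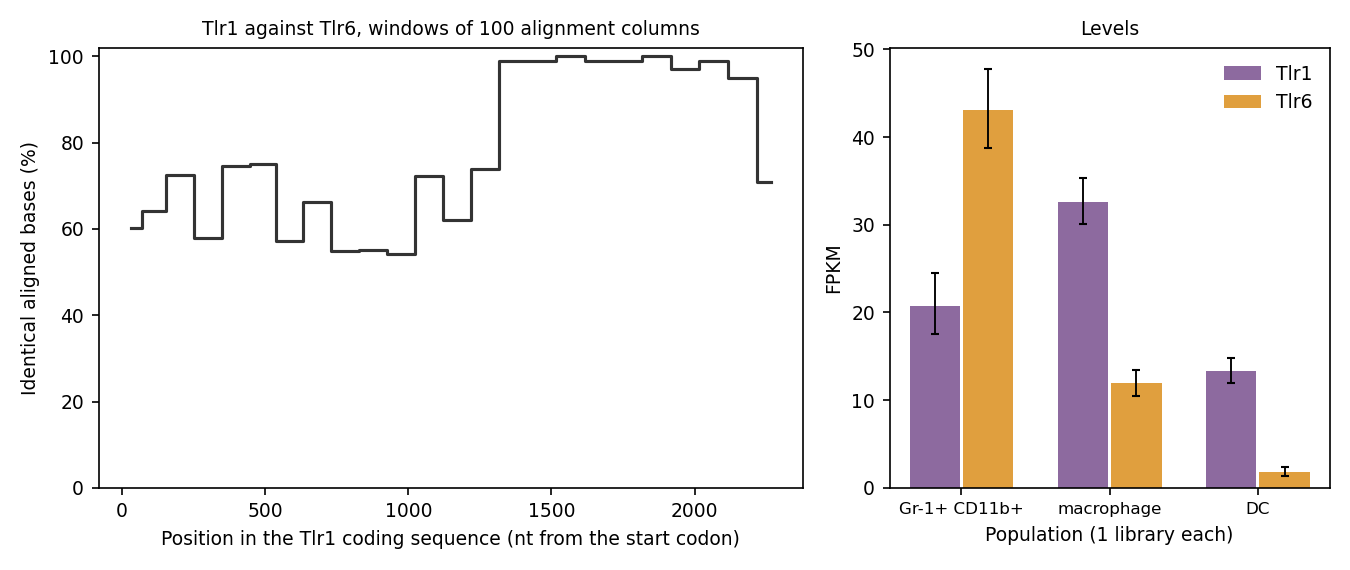
Left, percent of identical aligned bases between the Tlr1 and Tlr6 coding sequences in windows of 100 alignment columns, by position in Tlr1 (nt from the start codon); right, FPKM of both genes in Gr-1+ CD11b+ cells, macrophages and DC, 1 library each, with 95% counting intervals. Identity is 95 to 100% between positions 1317 and 2216, and Tlr6 is the higher gene in Gr-1+ CD11b+ cells only.

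Cd14 was the most abundant of the genes and among the highest of all genes. It reached 10998 FPKM in Gr-1+ CD11b+ cells, against 5981 in macrophages and 462 in DC, ranking 7th, 12th and 228th. It differed by 4.57 in Gr-1+ CD11b+ cells over DC and by 3.69 in macrophages over DC, past the size rule, and by 0.88 in Gr-1+ CD11b+ cells over macrophages. CD14 is held in the membrane by a lipid anchor, and its gene lies at chr18:36725067-36726798 on the minus strand, with its coding sequence in 1 exon.

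Tlr4, the lipopolysaccharide receptor gene, at chr4:66827584-66930284 on the plus strand with 3 coding exons, was far less abundant, at 27.7 FPKM in Gr-1+ CD11b+ cells, against 10.9 in macrophages and 2.03 in DC. It had the same order of populations as Cd14. In Gr-1+ CD11b+ cells over DC it differed by 3.24 and passed the size rule, but not with a pseudocount of 10, at 1.65, or a floor of 30 FPKM. The difference of 1.97 between macrophages and DC fell just short and passed with equal 75th percentiles, at 2.05. The ratio of Cd14 to Tlr4 was 398 in Gr-1+ CD11b+ cells, against 550 in macrophages and 227 in DC. Ly96, which encodes MD-2, did not follow Tlr4. It reached 25.4 FPKM in Gr-1+ CD11b+ cells, against 73.4 in macrophages and 32.6 in DC, so that its ratio to Tlr4 was 0.916, 6.76 and 16.0. These ratios do not depend on the scaling of a library.

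Tlr5, the flagellin receptor gene, at chr1:182954788-182976044 on the plus strand with 1 coding exon, was low throughout, at 2.24 FPKM in Gr-1+ CD11b+ cells, against 4.10 in macrophages and 0.590 in DC. Only the macrophage value exceeded its silent-gene level, by 1.27 times. The values rested on about 19, 96 and 18 fragments, and the gene passed the size rule in no comparison.

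The endosomal receptor genes did not share one order. Tlr13 and Tlr7 lie on the X chromosome, at chrX:106143204-106160493 on the plus strand with 2 coding exons and at chrX:167304929-167330558 on the minus strand with 1. Tlr13 reached 59.1 FPKM in Gr-1+ CD11b+ cells, against 28.2 in macrophages and 4.06 in DC. It differed by 3.57 in Gr-1+ CD11b+ cells over DC and by 2.53 in macrophages over DC, past the size rule, and by 1.04 in Gr-1+ CD11b+ cells over macrophages. After Tlr2 it was the most abundant receptor gene in Gr-1+ CD11b+ cells. Its order of populations was that of Tlr4, Tlr6 and Cd14.

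Tlr7 reached 1.87 FPKM in Gr-1+ CD11b+ cells, against 10.9 in macrophages and 3.58 in DC, highest in macrophages. The value in Gr-1+ CD11b+ cells lay below the silent-gene level and rested on about 16 fragments. Its difference of -2.05 between Gr-1+ CD11b+ cells and macrophages passed the size rule, and was -1.63 with median-ratio scaling and then did not. The ratio of Tlr13 to Tlr7 was 31.6 in Gr-1+ CD11b+ cells, against 2.58 in macrophages and 1.13 in DC.

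Tlr3, at chr8:45395665-45411080 on the minus strand with 4 coding exons, and Tlr9, at chr9:106222598-106226883 on the plus strand with 1, were at 1.90 FPKM or less in every library. Tlr3 reached 0.862 FPKM in Gr-1+ CD11b+ cells, against 1.70 in macrophages and 1.90 in DC, and Tlr9 reached 0.242, 1.21 and 1.35. Both exceeded the silent-gene level in DC only, and about 9 and 2 fragments gave the values in Gr-1+ CD11b+ cells. For Tlr9 in Gr-1+ CD11b+ cells the counting interval ran from 0.0308 to 0.919 FPKM. Between macrophages and DC the values of each gene lay within counting error, with differences of -0.10 and -0.09 that were 0.02 with median-ratio scaling, so no direction is given.

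Markers of the cells best known for TLR3 and TLR9 were read beside these values. TLR3 is known in the dendritic cell subset marked by Xcr1 and Clec9a. Levels of Xcr1 were 4.18 FPKM in the Gr-1+ CD11b+ library, 3.30 in macrophages and 2.83 in DC. Those of Clec9a were 0.866, 1.88 and 2.81 in that order. Neither marker exceeded the silent-gene level of the Gr-1+ CD11b+ library, nor did Clec9a that of macrophages. These low values are therefore not read as expression. TLR9 is known in B cells and plasmacytoid dendritic cells. The plasmacytoid marker Siglech reached 4.87 FPKM in Gr-1+ CD11b+ cells, below the silent-gene level, against 3.87 in macrophages and 14.7 in DC. All 6 plasmacytoid markers and all 8 B cell markers were highest in DC. Their part in the Tlr9 value was not tested. Part of the Tlr3 transcript, 1.56% of its 50-base windows, lies opposite an annotated antisense transcript, and no source used here states that strand was kept.

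Of 20 neighbouring pairs in the order of levels over the 10 genes, 5 had overlapping counting intervals. These were both pairs of Tlr3 and of Tlr9 and the pair of macrophages and Gr-1+ CD11b+ cells for Tlr5. Neither the spread between mice nor the scaling of the libraries is part of these intervals. A pair without overlap can also hold values below the silent-gene level, as for Tlr5 in Gr-1+ CD11b+ cells and DC.

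Macrophage markers accompanied several of these values. The 10 macrophage markers summed to 860.2 FPKM in Gr-1+ CD11b+ cells, against 9015 in macrophages and 859.2 in DC, or 9.54% and 9.53% of the macrophage sum in the first and the last. Single markers ranged from 8.17 to 27.3% in DC. In DC, Cd14 was at 7.72% and Tlr2 at 9.11% of the macrophage level, Tlr13 at 14.4%, Tlr5 at 14.4%, Tlr6 at 15.5%, Tlr4 at 18.7%, Tlr7 at 32.8% and Tlr1 at 40.8%. Tlr3 and Tlr9 were at 112% each in DC. In Gr-1+ CD11b+ cells, single markers ranged from 7.64 to 27.9% of the macrophage level. Tlr7, at 17.1%, and Tlr9 lay within that range. Its upper end was Mertk, at 3.18 FPKM in Gr-1+ CD11b+ cells, below the silent-gene level, which 7 of the 10 markers exceeded there. Tlr3 was at 50.7%, Tlr5 at 54.8%, Tlr1 at 63.7% and Tlr2 at 89.3%. Cd14 was at 184%, Tlr13 at 209%, Tlr4 at 255% and Tlr6 at 362%. The Gr-1+ CD11b+ values of Tlr3, Tlr5, Tlr7 and Tlr9 lay below the silent-gene level. The neutrophil markers summed to 2.57% of the Gr-1+ CD11b+ level in macrophages and 0.993% in DC. The part of other cells' RNA in the values was not tested.

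Together with Tlr8, Tlr11 and Tlr12, the remaining mouse receptors, the receptor genes summed to 459.9 FPKM in Gr-1+ CD11b+ cells, against 464 in macrophages and 63.0 in DC. Shares of this sum do not depend on library scaling. Tlr2 made up 64.6% in Gr-1+ CD11b+ cells, against 71.6% in macrophages and 48.0% in DC, and was the largest share in each. Tlr1 made up 4.52%, 7.03% and 21.1% in the same order of populations. Tlr6 made up 9.37%, 2.56% and 2.93%, and Tlr13 12.9%, 6.09% and 6.44%. Tlr3, Tlr7, Tlr8 and Tlr9 together made up 1.32% in Gr-1+ CD11b+ cells, against 4.41% in macrophages and 12.5% in DC. In Gr-1+ CD11b+ cells none of these 4 exceeded the silent-gene level, so that share is not read as expression.

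**Figure D4:**
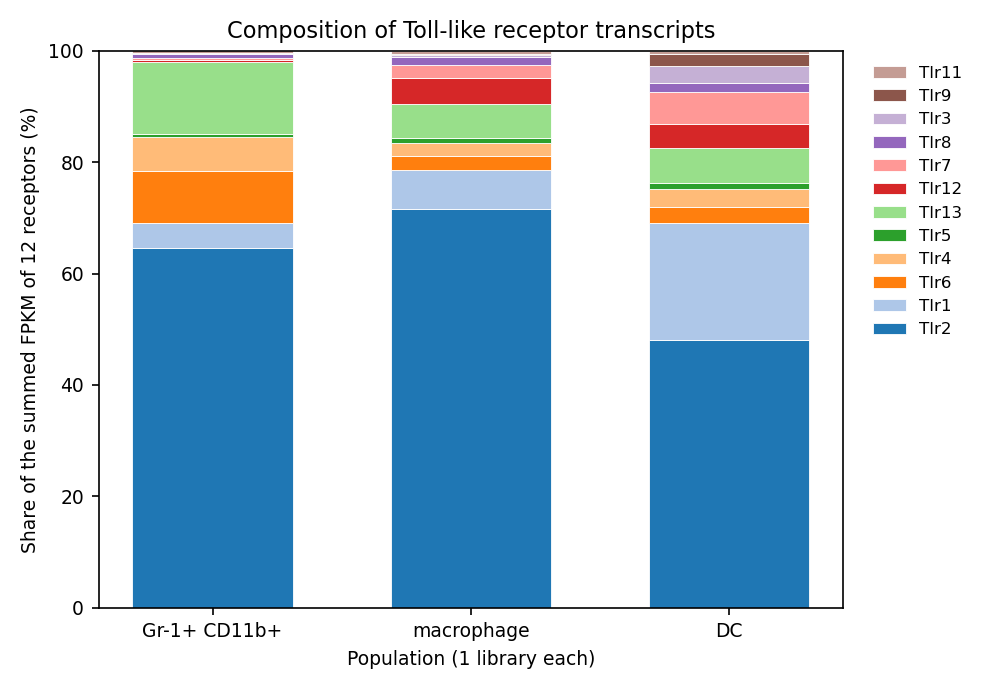
Share (%) of each of 12 Toll-like receptor genes in their summed FPKM in Gr-1+ CD11b+ cells, macrophages and DC, 1 library each. Tlr2 is the largest share in each bar, Tlr6 and Tlr13 are larger in Gr-1+ CD11b+ cells, and Tlr1 is largest in DC at 21.1%.

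Of the 3 other receptors, Tlr12, which recognises the profilin of protozoa, reached 2.0 FPKM in Gr-1+ CD11b+ cells, against 21 in macrophages and 2.72 in DC. It was higher in macrophages by the size rule in both comparisons, with differences of -2.88 between Gr-1+ CD11b+ cells and macrophages and 2.57 between macrophages and DC. The rule called 3.41% and 2.31% of all compared genes in those directions. In Gr-1+ CD11b+ cells, macrophages and DC, in that order, Tlr8 reached 3.08, 6.63 and 1.01 FPKM, and Tlr11 1.97, 2.43 and 0.368. All 3 receptors lay below the silent-gene level in Gr-1+ CD11b+ cells, and Tlr11 did so in every library.

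Of 5 helpers of the receptors at the surface, 3 were highest in macrophages, as were 8 of 10 genes for delivery to and processing in endosomes. The share of all genes that were highest in macrophages was not computed, so these counts are a description only. Set against macrophages, Gr-1+ CD11b+ cells had 4 of the 10 lower and 0 higher by that rule (median -1.97, and 2 lower with a median of -1.39 under median-ratio scaling), where 3.41% of all genes were called lower. Unc93b1, which escorts the endosomal receptors from the endoplasmic reticulum, reached 197 FPKM in Gr-1+ CD11b+ cells, against 850.3 in macrophages and 437 in DC. Hsp90b1, their folding chaperone, was at 54.0, 269 and 586. The Hsp90b1 value of DC came from the library with the highest plasma cell markers, and the part of plasma cells in it was not tested. Slc15a4, an endolysosomal transporter needed for signalling by TLR7 and TLR9, was at 5.22, 16.9 and 32.6, the first below the silent-gene level.

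The proteases that cleave endosomal receptors were among these genes. Lgmn, an asparagine endopeptidase, reached 68.6 FPKM in Gr-1+ CD11b+ cells, against 685 in macrophages and 132 in DC, and Ctss, a cathepsin, reached 497, 4512 and 1028. Ctsb, another cathepsin, was at 284, 1092 and 236, and Ctsl at 62.4, 252 and 55.4. Against DC, 4 of the 10 genes were higher in macrophages and 0 lower (median 0.79), namely Lgmn, Ctss, Ctsl and Ctsb, beside 2.31% of all genes. When library sums were made equal, 0 passed. The proteases are also general lysosomal enzymes.

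Among 5 surface helpers, Ly86 and Cd36 passed the rule towards macrophages in the comparison with Gr-1+ CD11b+ cells, and Ly86 also towards DC, beside 3.41% and 6.28% of all genes called lower. With median-ratio scaling the call of Ly86 towards macrophages was the 1 that held. Ly86, which encodes MD-1, reached 61.9 FPKM in Gr-1+ CD11b+ cells, against 660.4 in macrophages and 298 in DC. Its receptor partner gene Cd180, known for B cells, was at 1.31, 4.0 and 8.08. Cd36, a scavenger receptor that assists TLR2 with TLR6, was at 6.56, 32.0 and 13.6. Lbp, the lipopolysaccharide-binding protein gene, was at 6.82, 3.40 and 4.81 and passed in no comparison. In Gr-1+ CD11b+ cells Cd180, Cd36 and Lbp lay below the silent-gene level.

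Among the adaptors that bind the receptors' cytoplasmic part, the calls were towards Gr-1+ CD11b+ cells. Myd88, the adaptor of all the receptors here but TLR3, reached 409 FPKM in Gr-1+ CD11b+ cells, against 263 in macrophages and 92.7 in DC, and Tirap, which bridges TLR2 and TLR4 to MyD88, reached 24.0, 4.51 and 5.18. Pik3ap1, which links the receptors to phosphoinositide 3-kinase, was at 134, 108 and 104 and passed in no comparison. Of 5 adaptors compared, Tirap was higher in Gr-1+ CD11b+ cells set against macrophages, by 2.18, beside 1.41% of all genes. Set against DC, Myd88 and Tirap were higher there by 2.13 and 2.02, beside 3.65% of all genes. Neither passed against DC with equal sums. Ticam1, the adaptor of TLR3 also called TRIF, was at 4.82, 9.57 and 10.1 FPKM. Ticam2, which bridges TLR4 to it, was at 4.65, 13.4 and 5.88, the first below the silent-gene level. The ratio of Myd88 to Ticam1 was 84.8 in Gr-1+ CD11b+ cells, against 27.5 in macrophages and 9.18 in DC, although the Ticam1 value of Gr-1+ CD11b+ cells lay below the silent-gene level.

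Most signalling genes further down passed the rule in no comparison. Of 16 kinases, ligases and scaffolds, Ikbke, a kinase that activates interferon regulatory factors, was the 1 that passed, at 9.23 FPKM in Gr-1+ CD11b+ cells, against 40.7 in macrophages and 6.01 in DC. The value in Gr-1+ CD11b+ cells lay just below the silent-gene level. The gene passed as lower in Gr-1+ CD11b+ cells over macrophages, by -2.03, and as higher in macrophages over DC, by 2.57, beside 3.41% and 2.31% of all genes. The first call ended with median-ratio scaling, and with equal sums Ikbkb, another kinase, passed as lower in Gr-1+ CD11b+ cells over DC. Of 2 kinases of the MyD88 complex, Irak2 was at 74.6, 96.8 and 55.6 FPKM and Irak1 at 32.9, 44.2 and 69.8. Of 8 transcription factors, Irf8 passed as lower in Gr-1+ CD11b+ cells set against either other library, at 27.6 FPKM against 145 in macrophages and 190 in DC, beside 3.41% and 6.28% of all genes. With median-ratio scaling it passed in neither. Irf5, which acts with MyD88, was at 74.0, 235 and 139, and Irf7 at 219.9, 212 and 125.

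Of 10 inhibitors, Sigirr and Tank passed the rule as lower, Tank in Gr-1+ CD11b+ cells over macrophages (beside 3.41% of all genes) and Sigirr in both comparisons with DC (6.28% and 1.53%). Sigirr, a receptor that dampens signalling through these adaptors, reached 1.33 FPKM in Gr-1+ CD11b+ cells, against 2.13 in macrophages and 20.3 in DC, and was lower than in DC in both other libraries. Both of those lower values lay below the silent-gene levels. Tank, a binding partner of the kinases TBK1 and IKKε, was at 15.7, 88.0 and 56.5. Nfkbia, the gene of an NF-kB inhibitor that NF-kB itself induces, was the most abundant at 3141, 2622 and 874, and Tnfaip3, which encodes the deubiquitinase A20, was at 319.9, 208 and 89.9. In Gr-1+ CD11b+ cells over DC they differed by 1.84 and 1.82, short of the rule, and passed it with median-ratio scaling, as did Irak3, the gene of an inhibitory kinase homologue. Sigirr differed by -3.19 and -2.77, and Tank by -2.41, a call that ended with median-ratio scaling. Over 57 pathway genes compared, 1 was higher and 10 were lower in Gr-1+ CD11b+ cells set against macrophages, or 1.75% and 17.5% beside 1.41% and 3.41% of all genes, and 4 were lower with median-ratio scaling. Against DC, 2 were higher and 5 lower in Gr-1+ CD11b+ cells, or 3.51% and 8.77%, near the 3.65% and 6.28% of all genes. With median-ratio scaling 5 were higher and 2 lower, and with equal sums 0 were higher and 7 lower, so no direction is given. In macrophages against DC, 6 were higher and 1 lower, or 10.5% and 1.75% beside 2.31% and 1.53%, and 2 were higher with equal sums.

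**Figure D5:**
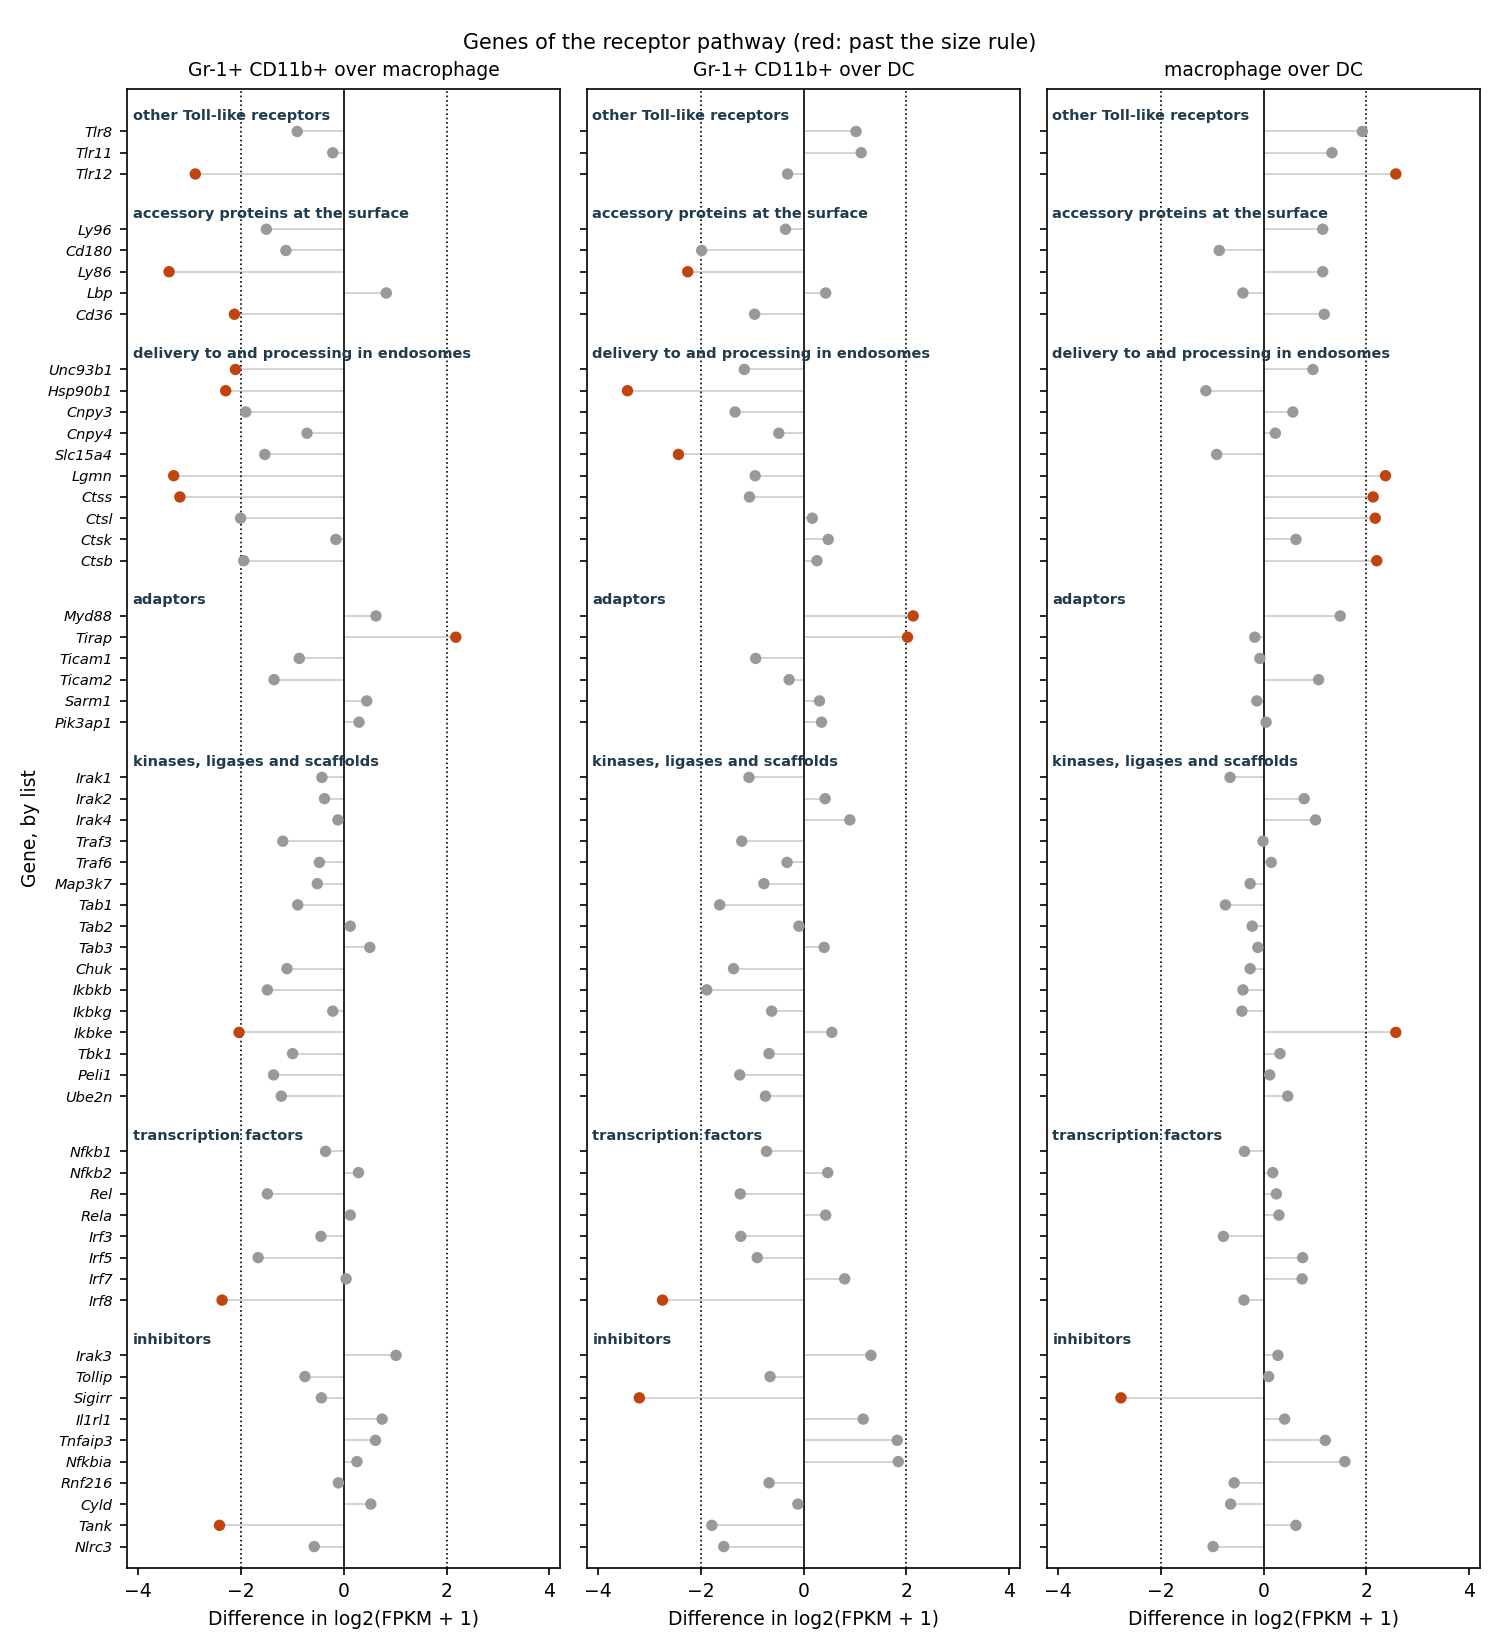
Differences in log2(FPKM + 1) for 58 genes of the receptor pathway by list, in the comparisons of Gr-1+ CD11b+ cells over macrophages, Gr-1+ CD11b+ cells over DC, and macrophages over DC; each point is 1 gene and red points passed the size rule. Genes for endosomal delivery lie left of 0 in the first panel, and Tirap is the red point to its right.

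Genes with the most similar levels in the 3 libraries were sought by the Euclidean distance of the log2(FPKM + 1) values, over 15195 candidates. For Cd14 they were Tyrobp, Fcer1g and Ifitm2, at distances of 1.29, 1.45 and 1.97, so no gene was close to it. Tyrobp and Fcer1g encode signalling adaptors of myeloid receptors. For Tlr2 they were Igsf6, Fcgr4 and Rnf149, at 0.28, 0.32 and 0.60, with Fcgr4, an IgG receptor gene, at 302 FPKM in Gr-1+ CD11b+ cells, against 347 in macrophages and 24.1 in DC. For Tlr4 they were Zfp937, P2ry2 and Ipcef1, at 0.15, 0.21 and 0.39, with P2ry2, an ATP and UTP receptor gene, at 29.4, 12.1 and 1.78 FPKM. For Tlr7 they were Ppfia4, Tmem55a and Lyve1, at 0.08, 0.19 and 0.41, with Lyve1, a hyaluronan receptor gene of some macrophages, at 1.98, 13.8 and 4.51 FPKM. For Tlr9, 116 genes lay within 0.5, so its nearest genes, Rragb, Hoga1 and Pola1, mark little. With 3 libraries, such likeness is a description of levels only.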

How the data were processed

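For each library the authors deposited FPKM by gene symbol. RNA was extracted with an RNeasy kit, amplified with SMART-Seq HT and made into Nextera libraries, per the labels' protocols. Cufflinks 2.2.1, TopHat2 2.0.13, SAMtools 0.1.19, Bowtie2 2.2.3 and build mm10 are listed, without roles, per the submitters' processing notes. The annotation and filters are not given in the sources used here.

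Levels are as deposited. Differences are of log2(FPKM + 1), over genes that reach 1 FPKM in at least 1 library. The size rule asked for a log2 difference of 2 and 10 FPKM in the higher library. No test was possible with 1 library per population. The rule was tested on simulated data.

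Of the 24346 symbols, 23310 matched GENCODE M21 (GRCm38, that is mm10), which gave lengths, positions and sequences. FPKM steps of single-transcript genes over 800 nt gave the worth of 1 fragment on a 1 kb transcript as 0.442 FPKM in Gr-1+ CD11b+ cells, against 0.163 in macrophages and 0.123 in DC. The part of low values no more than 0.2 from a whole number of fragments was 62.9%, 60.4% and 70.4%. By chance 40% is given for a worth not fitted to the values. The worth was fitted to these same values, so the excess is no independent check. Fragment numbers and their 95% exact Poisson intervals are approximate. Coding sequences were aligned globally (match 2, mismatch -2, gap opening -6, gap extension -1).

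The members, lists and naming rules were chosen with earlier results of these data known. All members were named, with pathway genes that passed the rule or were among the highest of their list, and a few more for their role, chosen after their values were seen. For 5 members the 3 genes of nearest levels were named. The alternatives were pseudocounts of 0.1 and 10, no filter and no floor (1 setting), a floor of 30 FPKM, 3 scalings and subtraction of the silent-gene median. All members pass the filter, so its removal changes nothing for them. Python 3.11.15, NumPy 2.4.6, pandas 2.3.3, SciPy 1.17.1, Biopython 1.88 and matplotlib 3.10.9 were used.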

Additional observations from a re-analysis of the deposited data

How the results depend on the processing

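Over 8 alternatives, 221 of 240 values of the 10 genes kept their direction and their side of the size rule, 11 dropped below the rule, 4 newly passed it and 4 changed sign. Other pseudocounts, filters or floors cannot change a sign, so for direction only the scalings and the subtraction were a check. The sign changes were in Tlr2 between Gr-1+ CD11b+ cells and macrophages, at 0.42 with median-ratio scaling and 0.44 with equal 75th percentiles, and in Tlr3 and Tlr9 between macrophages and DC, at 0.02 each with median-ratio scaling. None of these values passed the rule, and the cause of the changes was not tested. Against macrophages, the members lower in Gr-1+ CD11b+ cells were 0 with a pseudocount of 10, a floor of 30 FPKM, median-ratio scaling or equal 75th percentiles, and the members higher were 1 (Tlr6) under those 2 scalings. The members higher in Gr-1+ CD11b+ cells than in DC were 4, without Tlr4, with a pseudocount of 10 or a floor of 30 FPKM. The members higher in macrophages than in DC were 2 (Tlr2 and Cd14) with a pseudocount of 10 or a floor of 30 FPKM. They were 3, without Tlr6, with equal sums, and 5, with Tlr4 added, with a pseudocount of 0.1 or equal 75th percentiles. The median over all compared genes between Gr-1+ CD11b+ cells and DC was 0.01 as deposited, -0.27 once sums were made equal and 0.63 by median ratios. No paired analysis was possible because each population has 1 library and the result comes from no test. In Gr-1+ CD11b+ cells, the library of lowest depth, Tlr3, Tlr5, Tlr7 and Tlr9 rested on 2 to 19 fragments and lay below the silent-gene level.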
